A study of Danio rerio with 16 samples.

Results

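In the somatic cells of the zebrafish embryo, 1907 genes were higher and 1925 genes lower in the gastrula at 7 h post fertilisation (hpf) than in the blastula at 4 hpf. Genes of the oocyte and of germ plasm were among those that fell, and ribosomal protein genes and regulators of the germ layers among those that rose. The comparison described here sets the 2 libraries of somatic cells at 7 hpf against the 2 libraries of somatic cells at 4 hpf, which are 4 of the 16 RNA-sequencing libraries of the study. The members were chosen by their labels for cell type and stage, and 20536 of 34289 gene rows held enough counts to be tested. The study sorted primordial germ cells (PGCs) and soma at 4 stages and sequenced 2 replicates of each, and the later stages, 24 and 36 hpf, enter at the end. All groups came from 1 transgenic zebrafish line, kop-EGFP-F'-nos3'UTR-cry-DsRed, in which the *kop* promoter and the *nos3* untranslated region place a membrane-bound EGFP in PGCs. A lens promoter drives DsRed. The soma at 7 hpf and the soma at 4 hpf were the cells without EGFP from fluorescence-activated sorting. Each soma library is thus a mixture of embryonic cells without EGFP, pooled over embryos, and the sort does not show which cell types it holds. No labelled treatment or mutation separates the soma at 7 hpf from the soma at 4 hpf, and stage is their sole labelled difference. The paper raised eggs at several temperatures without saying which stage had which. It kept embryos older than 24 hpf in N-phenylthiourea, which inhibits pigmentation.

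The early zebrafish embryo runs on RNA that the mother stored in the egg, and its own genome is transcribed on a large scale once the cleavage divisions slow. The maternal pluripotency factors Nanog, Pou5f3 and Sox19b open and activate zygotic genes, among them the miR-430 microRNA family. This family promotes deadenylation and decay of many maternal messages. During gastrulation, Nodal, Wnt, FGF, BMP and retinoic acid signals then divide the blastoderm into endoderm, mesoderm, neural plate and epidermis while cells move by epiboly, internalisation and convergence.

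Total counts were 7076558 and 5033782 at 7 hpf, against 2825775 and 4120866 at 4 hpf. Levels are given as CPM, the counts scaled to library size with edgeR's trimmed mean of M values (TMM). The TMM factors were 0.878 and 0.909 at 7 hpf, against 1.48 and 1.25 at 4 hpf. The counts were more concentrated at the later stage: the 10 genes with most counts held 6.60% and 7.69% of them at 7 hpf, against 2.89% and 3.45% at 4 hpf. The soma label held, since the 8 PGC markers summed to 139 and 46.8 CPM in soma at 7 hpf, against 289 and 252 CPM at 4 hpf, whereas the 4 PGC libraries of these stages held from 5628 to 9296 CPM. Both 7 hpf libraries carried all 6 markers of the enveloping layer, the outer epithelial sheet of the embryo, but in unequal amounts. Their summed level was 425 CPM in replicate 1 and 1477 CPM in replicate 2, against 213 and 253 CPM at 4 hpf. Both blood markers found were at 0 in all 4 libraries. The paper calls the 2 replicates behind its marker gene values biologically independent. The labels do not say whether they came from separate clutches or sorts. The p-values rest on a spread between replicates that was estimated over all 16 libraries in 8 groups, not over the 4 soma libraries alone. How much of that spread is technical is not known. In such sorted mixtures, fewer cells of a type and less RNA per cell cannot be told apart.

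At an adjusted p under 0.05 and a log2 fold change past 1.5, 1907 genes (9.29% of those tested) were higher and 1925 genes (9.37%) were lower at 7 hpf than at 4 hpf by edgeR's quasi-likelihood test. The 7 hpf libraries both lay above the 4 hpf libraries for 29.3% of tested genes and both below for 25.3%. With each of the 4 soma libraries left out in turn, the test called between 1207 and 1663 genes higher and between 1151 and 1746 genes lower. The lowest counts were 1207 higher without 4 hpf replicate 1 and 1151 lower without 7 hpf replicate 2, and without 4 hpf replicate 1 the lower count was 1243. Scaling by library totals in place of TMM lowered the log2 fold changes of genes at or above 1 CPM by a median of 0.61. It gave 1064 higher and 3146 lower genes, and higher genes made up 25.3% of the calls instead of 49.8%. The fold changes below therefore depend on the TMM scaling. Over all tested genes, detected in soma or not, their median was 0 with TMM and -0.28 with library totals.

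**Figure D1:**
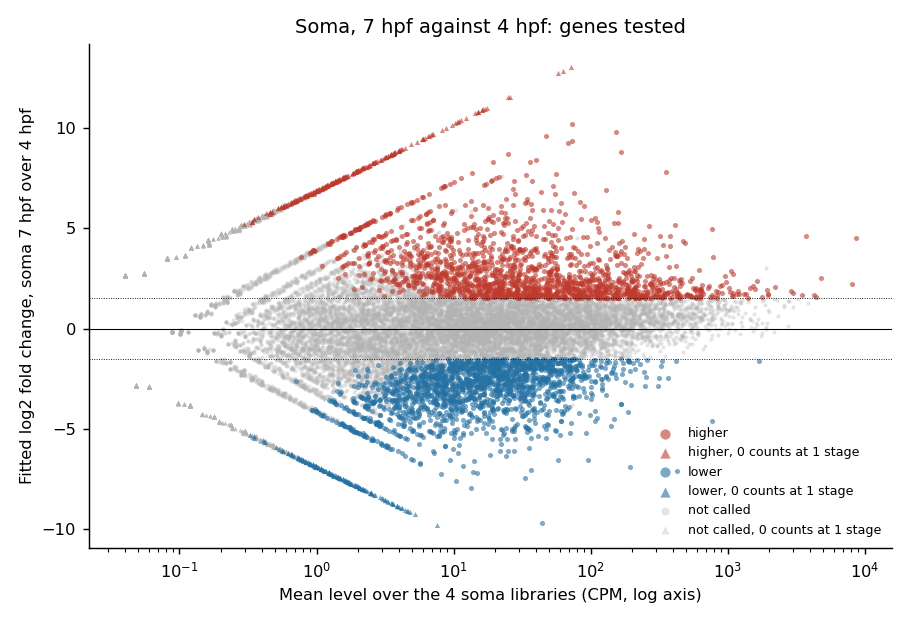
Log2 fold change of each tested gene (7 hpf over 4 hpf, vertical axis) against its mean level over the 4 soma libraries (CPM, logarithmic horizontal axis), with genes called higher, lower and not called in separate colours and triangles for genes with 0 counts at 1 stage. The 1907 higher and 1925 lower genes lie on both sides at almost every level, and the lower genes thin out at the most abundant end.

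The 1907 higher genes had a median mean level of 38.0 CPM at 7 hpf, against 5.03 CPM at 4 hpf, and a median log2 fold change of 2.73. Of these, 264 had no count in either 4 hpf library, and 445 (23.3%) had at most 3 counts in each, the level taken here as the floor of detection. A further 162 were already at or above 100 CPM at 4 hpf, so that the rising set held both genes first detected at 7 hpf and genes that added to an abundant transcript. Together the higher genes took 30.6% of counts at 7 hpf, against 10.3% at 4 hpf. The 1925 lower genes had a median mean level of 2.77 CPM at 7 hpf, against 21.8 CPM at 4 hpf, and a median log2 fold change of -2.95. For 161 of them no count was left in either 7 hpf library, and 955 stood between 1 and 10 CPM, so that most falling transcripts were still counted at 7 hpf. The call itself bears on these levels, since a gene can be called lower only if it was counted at 4 hpf. Together the lower genes took 1.37% of counts at 7 hpf, against 11.3% at 4 hpf.

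Genes known for roles in the egg, in activation of the genome or in gastrulation were grouped into 23 lists, which together hold 424 genes. Of these, 171 rose, 33 fell, 217 were not called and 3 were too low to test. Of the 246 called genes that belong to a list or are named below, 154 kept the call without each of the 4 soma libraries in turn. The lists below are given as counts and medians, beside a median of 0 and shares of 9.29% higher and 9.37% lower over all tested genes. A stricter filter asked for at least 10 counts in both soma libraries of a stage and a mean of 1 CPM. Under it 1726 of 12730 genes were higher and 2294 lower, which are larger shares.

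**Figure D2:**
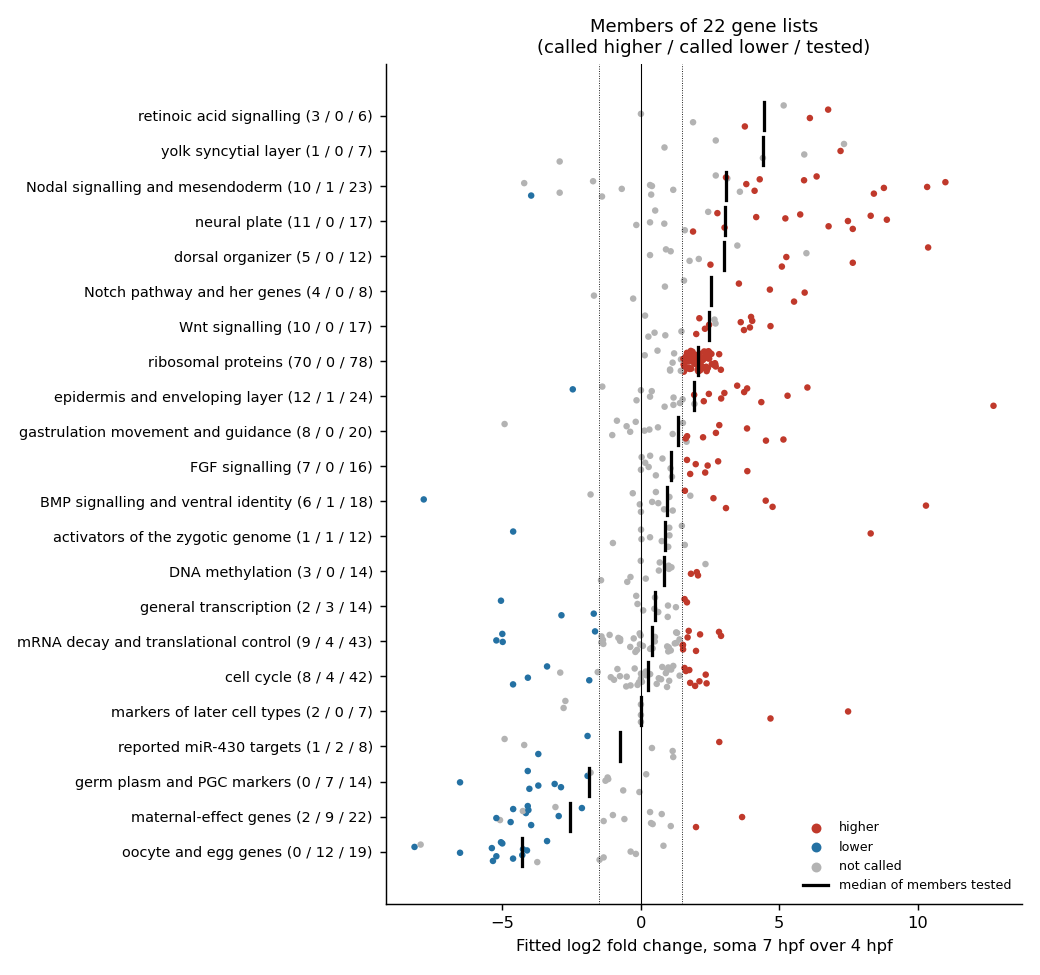
Log2 fold change (7 hpf over 4 hpf, horizontal axis) of the tested members of the 22 lists with a called gene, 1 point per gene, with the list's median as a bar and genes called higher, lower or not called in separate colours. The lists of oocyte, maternal-effect and germ plasm genes have medians of -4.29, -2.55 and -1.87. The lists of embryonic signals and cell fates have medians to the right of 0, except the markers of later cell types with a median of 0.

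*nanog* (ENSDARG00000075113), a homeobox gene, was the 1 activator of the zygotic genome that fell. Its level was 84.5 and 35.4 CPM at 7 hpf, against 1411 and 1534 CPM at 4 hpf, and the groups were far apart (log2 fold change -4.61 ± 0.57 SE, adjusted p = 0.000165). The other maternal activators were not called. *pou5f3* stood at 2262 and 1616 CPM at 7 hpf, against 992 and 1312 CPM at 4 hpf, a difference that did not pass the test (adjusted p = 0.267). *sox19b*, the maternal SoxB1 gene, was at 69.1 and 61.2 CPM at 7 hpf, against 141 and 122 CPM at 4 hpf (log2 fold change -1.01, adjusted p = 0.0723). Among the zygotic SoxB1 genes, *sox2* had 97.7 and 46.2 CPM at 7 hpf, against 0 and 0.388 CPM at 4 hpf (adjusted p = 0.0012). Its 4 hpf libraries held 0 and 2 counts, so that no fold is given. *sox3* (221 and 178 CPM at 7 hpf, against 136 and 181 CPM at 4 hpf) did not pass the test. The coactivator genes *ep300*, present as 2 paralogs, and *crebbp* were not called higher at the fold threshold, with log2 fold changes of 1.02, 1.03 and 1.48. In all, 1 of the 12 activator genes rose and 1 fell (median 0.87), shares near those of all tested genes, detected in soma or not. Under library totals 1 rose and 2 fell (median 0.24), beside a median of -0.28 over all genes under that scaling. With effective lengths as offsets 2 rose and 1 fell.

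The oocyte and egg genes had the lowest median of the 23 lists. Of 19 members, 12 were lower and 0 were higher (median log2 fold change -4.29, or -4.12 with genes at 0 set to their bound), and in 17 both 7 hpf libraries lay below both 4 hpf libraries. *wee2*, an oocyte kinase that in mammals holds meiotic arrest by inhibiting Cdk1, was at 7.09 and 2.19 CPM at 7 hpf, against 114 and 119 CPM at 4 hpf (log2 fold change -4.62 ± 0.99 SE, adjusted p = 0.00475). *cldnd*, a claudin gene, was at 2.74 and 1.09 CPM at 7 hpf, against 100.2 and 60.7 CPM at 4 hpf (log2 fold change -5.34 ± 0.73 SE, adjusted p = 0.000547). *cth1*, which encodes a zinc finger protein of the family that binds AU-rich messages, was at 10.6 and 1.31 CPM at 7 hpf, against 154 and 80.8 CPM at 4 hpf (log2 fold change -4.26). In all 3 genes both 7 hpf libraries lay far below both 4 hpf libraries. *fbxo43*, whose product inhibits the anaphase-promoting complex in vertebrate eggs, was at 7.89 and 3.28 CPM at 7 hpf, against 58.5 and 60.3 CPM at 4 hpf (log2 fold change -3.39). *mos*, the kinase of the meiotic MAPK cascade, had 0.483 and 0 CPM at 7 hpf, against 18.5 and 5.04 CPM at 4 hpf, with 3 and 0 counts left at 7 hpf. *npm2a*, a nucleoplasmin gene of the egg, had no count at 7 hpf, against 5.99 and 3.88 CPM at 4 hpf, which makes it at least 5.91-fold lower. Its relative *npm2b* was not called, with 71.2 and 54.9 CPM at 7 hpf, against 87.7 and 75.6 CPM at 4 hpf (adjusted p = 0.663), and the egg coat genes *zp3b* and *zp2.5* were low at both stages and not called. The count of lower genes was 6 without 7 hpf replicate 2 and 6 without 4 hpf replicate 1. Calls for *wee2*, *mos*, *zar1l*, *bmp15*, *npm2a*, *btg4* and *tbpl2* were each lost in at least 1 such run, and 5 genes (*cth1*, *cldnd*, *fbxo43*, *pabpn1l* and *ca15b*) kept the call in every one.

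Maternal-effect genes are those whose loss in the mother disturbs the embryo. Of 22 tested, 9 fell and 2 rose, with a median of -2.55 that became -1.74 with genes at 0 set to their bound. *lrmp*, which acts in the meeting of the pronuclei, was at 35.3 and 4.16 CPM at 7 hpf, against 315 and 394 CPM at 4 hpf (log2 fold change -4.16 ± 0.79 SE, adjusted p = 0.002). *mid1ip1l*, needed for furrow formation and germ plasm gathering, was at 4.35 and 1.31 CPM at 7 hpf, against 90.8 and 61.8 CPM at 4 hpf (log2 fold change -4.71 ± 0.55 SE, adjusted p = 0.000125). *eomes* (ENSDARG00000006640), a T-box factor that feeds into Nodal and endoderm induction, was at 2.42 and 4.37 CPM at 7 hpf, against 55.8 and 49.2 CPM at 4 hpf (log2 fold change -3.96 ± 0.70 SE, adjusted p = 0.00121). *gdf3*, the maternal partner of the Nodal ligands, was at 41.7 and 12.9 CPM at 7 hpf, against 141 and 289 CPM at 4 hpf (log2 fold change -2.97). In each of these genes the groups did not overlap and the call held without any 1 library. The microtubule-associated *sybu*, which acts in dorsal determination, was at 1.13 and 3.28 CPM at 7 hpf, against 40.7 and 31.97 CPM at 4 hpf, but its call was lost without 7 hpf replicate 1 (adjusted p = 0.0513). *btg4*, an adaptor of the deadenylase complex in mammals, had 0.161 and 1.09 CPM at 7 hpf, against 41.7 and 3.68 CPM at 4 hpf, and its 4 hpf libraries were far apart. Its call was lost without 7 hpf replicate 1 (adjusted p = 0.0949) and without 4 hpf replicate 1 (adjusted p = 0.208). The RNA-binding *ybx1*, a repressor of maternal *ndr1* translation, was instead at 2138 and 2897 CPM at 7 hpf, against 482 and 786 CPM at 4 hpf (log2 fold change 1.99, adjusted p = 0.0144). Its adjusted p was 0.0793 without 7 hpf replicate 2 and 0.128 without 4 hpf replicate 1. *igf2bp3* (605 and 454 CPM at 7 hpf, against 309.6 and 479.6 CPM at 4 hpf), a stabiliser of maternal messages, and *celf1* (187 and 156 CPM at 7 hpf, against 67.3 and 95.1 CPM at 4 hpf) were not called. The count of lower genes was 6 without 7 hpf replicate 1. The count of higher genes was 0 without 7 hpf replicate 2 and 1 without each of the other soma libraries.

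Germ plasm and PGC transcripts fell in soma, although the soma was sorted as EGFP-negative at both stages. Of 14 members, 7 were lower and 0 higher (median -1.87), and the members summed to 306 and 141 CPM at 7 hpf, against 659 and 494 CPM at 4 hpf. *tdrd7a*, a Tudor-domain component of germ granules, was at 7.41 and 4.59 CPM at 7 hpf, against 92.3 and 66.1 CPM at 4 hpf (log2 fold change -3.71 ± 0.71 SE, adjusted p = 0.00206). *rgs14a* was at 1.13 and 3.4997 CPM at 7 hpf, against 39.8 and 33.7 CPM at 4 hpf (log2 fold change -4.03 ± 0.85 SE, adjusted p = 0.00375). *ca15b*, a carbonic anhydrase gene of the germ line, was at 0.322 and 0 CPM at 7 hpf, against 27.3 and 9.88 CPM at 4 hpf, with 2 and 0 counts at 7 hpf (adjusted p = 0.000657). *buc*, the organiser of germ plasm, was at 7.25 and 6.12 CPM at 7 hpf, against 154 and 74.2 CPM at 4 hpf (log2 fold change -4.09 ± 0.90 SE, adjusted p = 0.00567), a call lost without 7 hpf replicate 2 (adjusted p = 0.0541). The calls for *tdrd7a*, *rgs14a* and *ca15b* held in every such run. Other genes of the list were not called: *ddx4* was at 87.3 and 28.2 CPM at 7 hpf, against 88.2 and 92.2 CPM at 4 hpf, and *tdrd9* at 72.1 and 42.7 CPM at 7 hpf, against 56.6 and 62.8 CPM at 4 hpf. In replicate 2 at 7 hpf most members of this list were lower than in replicate 1, as *piwil1* with 38.2 and 9.19 CPM shows, and the part of residual PGCs in these values was not tested. The count of lower genes was 4 without 7 hpf replicate 2 and 4 without 4 hpf replicate 1.

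**Figure D3:**
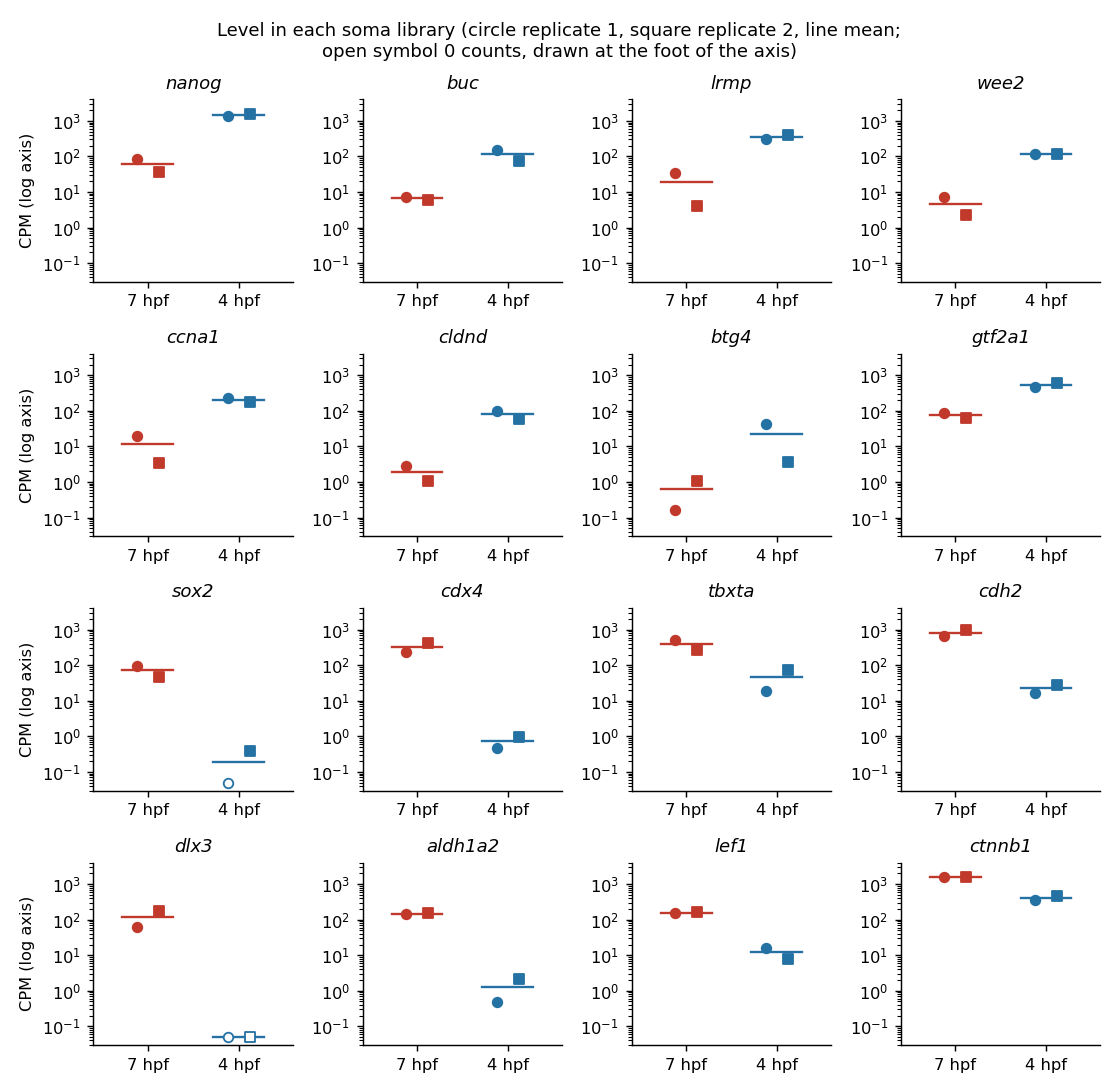
Level of 16 genes in each soma library (CPM, logarithmic vertical axis), 7 hpf left of 4 hpf in each panel, 1 symbol per library, with open symbols at the foot of the axis for libraries with 0 counts. In the upper 2 rows (*nanog* to *gtf2a1*) both 7 hpf libraries lie below both 4 hpf libraries, and in the lower 2 rows (*sox2* to *ctnnb1*) both lie above.

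Of 43 genes of mRNA decay and translational control, 9 were higher and 4 lower (median 0.39). The share of lower genes was near that of all tested genes, detected in soma or not. *lsm14b*, a P-body protein of the oocyte type, was at 3.704 and 1.97 CPM at 7 hpf, against 101 and 83.1 CPM at 4 hpf (log2 fold change -4.99 ± 0.80 SE, adjusted p = 0.000831). *pabpn1l*, an egg-type nuclear poly(A)-binding protein gene, was at 1.61 and 0 CPM at 7 hpf, against 38.3 and 18.6 CPM at 4 hpf (log2 fold change -5.01). The deadenylase *parn* was at 72.6 and 59.1 CPM at 7 hpf, against 219 and 197 CPM at 4 hpf (log2 fold change -1.66). The genes that rose included RNA-binding proteins and partners of Argonaute. *igf2bp1*, which shields messages from decay, was at 1676 and 2058 CPM at 7 hpf, against 207 and 296 CPM at 4 hpf (log2 fold change 2.89 ± 0.50 SE, adjusted p = 0.00116). *elavl1* (ENSDARG00000101744), which binds AU-rich elements, was at 95.97 and 80.9 CPM at 7 hpf, against 15.8 and 9.301 CPM at 4 hpf (log2 fold change 2.82). *tnrc6a*, the scaffold that links Argonaute to deadenylases, was at 1218 and 1182 CPM at 7 hpf, against 213 and 333 CPM at 4 hpf (log2 fold change 2.14). The CCR4-NOT scaffold *cnot1* (972 and 834 CPM at 7 hpf, against 342 and 569.5 CPM at 4 hpf) and the m6A reader *ythdf2* (474 and 308 CPM at 7 hpf, against 196 and 193 CPM at 4 hpf) passed the adjusted p but stayed under the fold threshold. Under library totals 3 members were higher and 9 lower (median -0.18), beside a median of -0.28 over all genes under that scaling. The count of higher genes was 5 without 4 hpf replicate 1.

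Of the 14 genes of the general transcription machinery, 2 were higher and 3 lower (median 0.50). *gtf2a1*, a subunit of TFIIA, fell, with 87.3 and 61.03 CPM at 7 hpf, against 459 and 626 CPM at 4 hpf (log2 fold change -2.87 ± 0.32 SE, adjusted p = 0.000109). The TATA-binding protein gene *tbp* was at 31.9 and 22.1 CPM at 7 hpf, against 107 and 69.4 CPM at 4 hpf (log2 fold change -1.70). Its call was lost without 7 hpf replicate 2 (adjusted p = 0.0552, log2 fold change -1.47) and without 4 hpf replicate 1 (adjusted p = 0.0536, log2 fold change -1.36). *tbpl2*, its vertebrate oocyte paralog, had 0.161 and 0 CPM at 7 hpf, against 4.55 and 2.52 CPM at 4 hpf, with 1 and 0 counts at 7 hpf. Its call was lost without each of the 4 libraries in turn. *taf3*, a subunit of TFIID, was at 229.8 and 241 CPM at 7 hpf, against 74.1 and 74.8 CPM at 4 hpf (log2 fold change 1.66), a call that scaling by library totals removed. *polr2a*, the largest subunit of RNA polymerase II, was at 1086 and 1012 CPM at 7 hpf, against 581 and 893 CPM at 4 hpf and was not called (adjusted p = 0.243). The count of lower genes was 1 without 7 hpf replicate 2, 1 without 4 hpf replicate 1 and 2 without each of the other soma libraries, and the count of higher genes was 1 without 7 hpf replicate 1.

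Of 42 cell cycle genes, 8 were higher and 4 lower (median 0.26). Here too the share of lower genes was near that of all tested genes, detected in soma or not. *ccna1*, the egg-type cyclin A, was at 20.1 and 3.4997 CPM at 7 hpf, against 230.3 and 176 CPM at 4 hpf (log2 fold change -4.08 ± 0.71 SE, adjusted p = 0.00135). *ccna2*, the cyclin A of somatic cycles, was at 546 and 268 CPM at 7 hpf, against 508 and 547 CPM at 4 hpf and was not called (adjusted p = 0.437). The kinases that restrain Cdk1 moved in opposite directions. The oocyte gene *wee2* fell as given above, whereas *wee1* was at 237 and 163 CPM at 7 hpf, against 58.96 and 60.3 CPM at 4 hpf (log2 fold change 1.75, adjusted p = 0.000873). The call for *wee1* was lost without 7 hpf replicate 1 (log2 fold change 1.45) and under library totals (log2 fold change 1.13), whereas that for *wee2* was lost without 7 hpf replicate 2 (adjusted p = 0.0525). Of the replicative helicase, *mcm3* was at 994 and 789 CPM at 7 hpf, against 132 and 212 CPM at 4 hpf (log2 fold change 2.37). A further subunit, *mcm6*, was at 749 and 759 CPM at 7 hpf, against 92.99 and 205 CPM at 4 hpf (log2 fold change 2.34), and both calls held under every alternative. The subunit *mcm7* was also called higher (log2 fold change 1.58). Its value was under the fold threshold without 7 hpf replicate 2 (1.38), without 4 hpf replicate 1 (1.08) and under library totals (1.02). The subunits *mcm2*, *mcm4* and *mcm5* were not called. *gmnn*, which encodes the licensing inhibitor geminin, was at 173 and 106 CPM at 7 hpf, against 593 and 425 CPM at 4 hpf (log2 fold change -1.87), a call lost without 7 hpf replicate 2 (adjusted p = 0.0513). *cdkn1ca*, an inhibitor of cyclin-dependent kinases, was at 96.3 and 145 CPM at 7 hpf, against 22.3 and 39.7 CPM at 4 hpf (log2 fold change 1.96), a call lost without 4 hpf replicate 1 (adjusted p = 0.0613) and under library totals. Under library totals 2 of the 8 higher genes were left, the count of higher genes was 5 without 4 hpf replicate 1, and that of lower genes was 2 without 7 hpf replicate 2.

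Among the 8 gene rows matched to symbols of genes reported in zebrafish as miR-430 targets, 2 fell and 1 rose. A symbol can match paralogs, so not every row need be a reported target. The falling genes were *tdrd7a*, given above, and *nanos3*, with 1.61 and 1.31 CPM at 7 hpf, against 8.15 and 3.29 CPM at 4 hpf (adjusted p = 0.0246). The *nanos3* call was lost without 7 hpf replicate 1, without 7 hpf replicate 2 and without 4 hpf replicate 1 (adjusted p from 0.0859 to 0.258). The Nodal antagonists *lft1* (40.9 and 25.6 CPM at 7 hpf, against 15.1 and 14.5 CPM at 4 hpf) and *lft2* (24.5 and 10.7 CPM at 7 hpf, against 14.4 and 12.4 CPM at 4 hpf) were not called. The median was -0.77, and 0.20 with genes at 0 set to their bound, so that no direction is given for this short list.

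The 12 largest falls were taken among named genes whose soma libraries averaged 5 CPM or more, a minimum that left out falls of scarcer transcripts such as *gdf6a* and *npm2a*. *si:dkey-11o15.10* was at 0.966 and 0 CPM at 7 hpf, against 65.4 and 80.03 CPM at 4 hpf (log2 fold change -7.04 ± 0.80 SE, adjusted p = 0.000235). *zgc:64022* was at 0.644 and 0 CPM at 7 hpf, against 81.5 and 50.4 CPM at 4 hpf (log2 fold change -7.46 ± 1.14 SE, adjusted p = 0.000509). *cry1ab*, a cryptochrome of the circadian clock, was at 0.161 and 0 CPM at 7 hpf, against 34.8 and 18.99 CPM at 4 hpf (adjusted p = 0.000241). *smcr8*, which acts in autophagy in mammals, was at 0.161 and 0 CPM at 7 hpf, against 20.6 and 21.1 CPM at 4 hpf (adjusted p = 0.000198). *sytl4*, a Rab-binding synaptotagmin-like gene, was at 0.322 and 0 CPM at 7 hpf, against 36.4 and 18.99 CPM at 4 hpf (adjusted p = 0.000409). These 5 genes had between 1 and 6 counts in replicate 1 and no count in replicate 2 at 7 hpf. *si:dkey-159n16.4* and *si:ch1073-416j23.1* had no count at 7 hpf and were at least 21.6-fold and 10.6-fold lower. Of these 12 falls, that of *cdca9* alone lost its call in runs with 1 library left out. In PGCs *zgc:64022*, *zgc:165514* and *sytl4* were called lower over the same stages, and the rest of the 12 were not called. The difference between the soma change and the PGC change was not called for any of the 12.

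Among falling genes in no list, those with the highest mean CPM included chaperones and export factors of the endoplasmic reticulum. *hyou1*, a chaperone of the Hsp70 family, was at 90.3 and 68.03 CPM at 7 hpf, against 373 and 478 CPM at 4 hpf (log2 fold change -2.43 ± 0.35 SE, adjusted p = 0.000377). *trip11*, a golgin, was at 92.3 and 116.8 CPM at 7 hpf, against 310.4 and 397 CPM at 4 hpf (log2 fold change -1.76 ± 0.29 SE, adjusted p = 0.000895). *hspa5*, the chaperone BiP, was at 202 and 129 CPM at 7 hpf, against 498 and 499 CPM at 4 hpf (log2 fold change -1.59), just past the fold threshold. Its call was lost without 7 hpf replicate 2 (log2 fold change -1.30). *mia3*, which exports collagen, was at 249.8 and 167 CPM at 7 hpf, against 518 and 739.8 CPM at 4 hpf (log2 fold change -1.59). That call was lost without 7 hpf replicate 2 (log2 fold change -1.33) and without 4 hpf replicate 2 (log2 fold change -1.31). *blf*, a zinc finger gene needed in gastrulation, was at 58.5 and 133 CPM at 7 hpf, against 524 and 546 CPM at 4 hpf (log2 fold change -2.48 ± 0.37 SE, adjusted p = 0.000463). *uaca* was at 94.4 and 87.1 CPM at 7 hpf, against 374 and 426 CPM at 4 hpf (log2 fold change -2.14). A row of 5.8S ribosomal RNA (ENSDARG00000081218) was at 499.99 and 1154 CPM at 7 hpf, against 2889 and 2209 CPM at 4 hpf. It shares its sequence with other rows and was called lower here (log2 fold change -1.62), but not with effective lengths as offsets, not by limma on TPM, and not without 7 hpf replicate 1 (adjusted p = 0.11) or 4 hpf replicate 1 (adjusted p = 0.0751).

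Several mesoderm and endoderm regulators rose, while the Nodal ligand, coreceptor and effector genes named here were not called higher. Of 23 tested members, 10 were higher and 1, the maternal *eomes*, was lower (median 3.07). *cdx4*, a caudal homeobox gene of the posterior body, was at 239.6 and 426 CPM at 7 hpf, against 0.479 and 0.969 CPM at 4 hpf (log2 fold change 8.77 ± 1.40 SE, adjusted p = 0.000698). *tbx6*, a T-box gene of presomitic mesoderm, was at 34.8 and 126 CPM at 7 hpf, against 0.479 and 0 CPM at 4 hpf, with 2 and 0 counts at 4 hpf (adjusted p = 0.00382). *msgn1*, its partner in paraxial mesoderm, was at 92.4 and 109.8 CPM at 7 hpf, against 3.12 and 0.388 CPM at 4 hpf (log2 fold change 5.89). *tbxta*, the Brachyury gene of notochord and tailbud, was already present at the blastula stage, with 515 and 272 CPM at 7 hpf, against 19.4 and 74.02 CPM at 4 hpf (log2 fold change 3.07, adjusted p = 0.00933). Its call was lost without 7 hpf replicate 1 (adjusted p = 0.0519) and without 4 hpf replicate 1 (adjusted p = 0.0949). Another Brachyury gene, named *tbxt* in the table (ENSDARG00000039806), had 23.3 and 20.8 CPM at 7 hpf and no count at 4 hpf, at least 28.9-fold higher. Genes of the endoderm were also higher. *gata5* was at 50.1 and 49.4 CPM at 7 hpf, against 2.64 and 3.1004 CPM at 4 hpf (log2 fold change 4.10). *sox32*, the switch for endoderm fate, was at 37.04 and 23.8 CPM at 7 hpf, against 2.16 and 0.969 CPM at 4 hpf (log2 fold change 4.29), and *sox17*, its target, was at 24.5 and 28.9 CPM at 7 hpf, against 0 and 0.581 CPM at 4 hpf. The *sox32* call was lost without 4 hpf replicate 2 (adjusted p = 0.0573) and the *sox17* call without 4 hpf replicate 1 (adjusted p = 0.0906). Of the ligands, *ndr1* was at 0.322 and 0 CPM at 7 hpf, against 4.79 and 2.33 CPM at 4 hpf (adjusted p = 0.114). *ndr2* was at 28.02 and 24.1 CPM at 7 hpf, against 1.44 and 4.46 CPM at 4 hpf and did not pass the test either (adjusted p = 0.0554). The coreceptor *tdgf1* (105 and 92.5 CPM at 7 hpf, against 180.2 and 139 CPM at 4 hpf), the effector *foxh1* (211 and 128 CPM at 7 hpf, against 121 and 149 CPM at 4 hpf) and the T-box gene *tbx16* (592 and 334 CPM at 7 hpf, against 276 and 440.2 CPM at 4 hpf) were not called. *smad2* (55.9 and 36.97 CPM at 7 hpf, against 126 and 121 CPM at 4 hpf) passed the adjusted p but not the fold threshold (log2 fold change -1.41).

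Of the organizer genes, 5 of 12 tested were higher and 0 lower (median 2.996, or 1.92 with genes at 0 set to their bound), and each of the 5 calls held under every alternative. *chrd*, the BMP antagonist chordin, was at 609 and 708 CPM at 7 hpf, against 104 and 127 CPM at 4 hpf (log2 fold change 2.51 ± 0.49 SE, adjusted p = 0.00242). *foxa2*, of axial mesoderm and endoderm, was at 71.5 and 54.03 CPM at 7 hpf, against 1.92 and 1.74 CPM at 4 hpf (log2 fold change 5.09 ± 1.11 SE, adjusted p = 0.00467). *frzb*, a secreted Wnt antagonist, was at 61.03 and 70.9 CPM at 7 hpf, against 0 and 3.29 CPM at 4 hpf (log2 fold change 5.25). In these 3 genes the stages did not overlap. *otx2*, of the anterior neural plate and head mesoderm, had 45.9 and 89.7 CPM at 7 hpf, against 0.2397 and 0.388 CPM at 4 hpf, with 1 and 2 counts at 4 hpf (adjusted p = 0.00291). *shh* (ENSDARG00000068567), the Hedgehog ligand of the midline, had 23.3 and 21.9 CPM at 7 hpf and no count at 4 hpf, at least 30.4-fold higher. The organizer genes *gsc* and *noto* were not called, though in each both 7 hpf libraries lay above both 4 hpf libraries. *gsc* was at 25.6 and 24.5 CPM at 7 hpf, against 13.2 and 13.6 CPM at 4 hpf (adjusted p = 0.493), and *noto* was at 26.9 and 20.3 CPM at 7 hpf, against 18.5 and 19.2 CPM at 4 hpf (adjusted p = 0.838).

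In the Wnt pathway 10 of 17 genes were higher and 0 lower (median 2.46), and in 15 both 7 hpf libraries lay above both 4 hpf libraries. *lef1*, a nuclear effector of β-catenin, was at 153 and 162 CPM at 7 hpf, against 16.1 and 7.94 CPM at 4 hpf (log2 fold change 3.72 ± 0.41 SE, adjusted p = 9.33e-05). *fzd7* (ENSDARG00000060004), a receptor gene, was at 686 and 621 CPM at 7 hpf, against 53.9 and 53.5 CPM at 4 hpf (log2 fold change 3.60 ± 0.52 SE, adjusted p = 0.000377). *tcf7*, another effector, was at 23.03 and 47.7 CPM at 7 hpf, against 0.719 and 1.94 CPM at 4 hpf (log2 fold change 4.68). The genes that rose thus included a receptor and effectors. The target genes *sp5* (82.8 and 207 CPM at 7 hpf, against 5.27 and 12.4 CPM at 4 hpf) and *axin2* (145 and 208 CPM at 7 hpf, against 30.7 and 50.96 CPM at 4 hpf) had log2 fold changes of 4.02 and 2.11. *wnt5b*, a ligand of the noncanonical branch, was at 65.7 and 80.7 CPM at 7 hpf, against 2.16 and 6.98 CPM at 4 hpf (log2 fold change 3.98). *wnt11f2*, the ligand needed for convergence and extension, overlapped between stages, with 84.2 and 44.8 CPM at 7 hpf, against 23.5 and 83.5 CPM at 4 hpf. The 2 β-catenin genes differed in outcome. *ctnnb1* was at 1613 and 1636 CPM at 7 hpf, against 359.7 and 454 CPM at 4 hpf (log2 fold change 2.00). *ctnnb2* was at 586 and 594 CPM at 7 hpf, against 421 and 419 CPM at 4 hpf and was not called (adjusted p = 0.188), and the difference between them was not tested. The *ctnnb1* call was lost under library totals and without 4 hpf replicate 1 (adjusted p = 0.0798). The count of higher genes lay between 8 and 11 with 1 library left out.

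In the FGF pathway 7 of 16 genes were higher and 0 lower (median 1.095), chiefly feedback inhibitors and receptors. *dusp6*, the MAPK phosphatase that dampens FGF signalling, was at 323 and 351 CPM at 7 hpf, against 34.3 and 63.2 CPM at 4 hpf (log2 fold change 2.79 ± 0.49 SE, adjusted p = 0.0012). *fgf24*, a ligand, was at 25.9 and 65.6 CPM at 7 hpf, against 1.198 and 5.04 CPM at 4 hpf (log2 fold change 3.84). *etv4*, an ETS factor downstream of FGF, was at 289 and 198 CPM at 7 hpf, against 31.2 and 66.1 CPM at 4 hpf (log2 fold change 2.32). *fgfr4* was at 736 and 605 CPM at 7 hpf, against 139 and 201 CPM at 4 hpf (log2 fold change 1.98). These calls leaned on 1 library, since without 4 hpf replicate 1 only *dusp6* was called and the count was 1. The ligand *fgf8* (ENSDARG00000003399) was at 26.2 and 30.2 CPM at 7 hpf, against 9.59 and 16.3 CPM at 4 hpf and *fgf3* at 4.99 and 1.75 CPM at 7 hpf, against 3.595 and 3.1004 CPM at 4 hpf, and neither was called. Under library totals 4 of the 7 genes remained.

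Of the BMP and ventral genes, 6 of 18 were higher and 1 lower (median 0.93). *bmp4* was at 91.6 and 57.3 CPM at 7 hpf, against 8.39 and 9.301 CPM at 4 hpf (log2 fold change 3.07 ± 0.55 SE, adjusted p = 0.00138). *smad1*, a transducer of the signal, was at 21.9 and 19.03 CPM at 7 hpf, against 0.479 and 0.969 CPM at 4 hpf (log2 fold change 4.75 ± 0.77 SE, adjusted p = 0.000732). The inhibitory *smad6* was present as 2 genes. One (ENSDARG00000053209) was at 33.01 and 30.6 CPM at 7 hpf, against 1.198 and 1.55 CPM at 4 hpf (log2 fold change 4.51). The other (ENSDARG00000031763) had 20.8 and 22.1 CPM at 7 hpf and no count at 4 hpf, at least 28.9-fold higher. The gene that fell was *gdf6a*, a BMP ligand, with 0 and 0 CPM at 7 hpf, against 5.75 and 2.13 CPM at 4 hpf. The maternal transducer *smad5* (217 and 123 CPM at 7 hpf, against 162 and 189 CPM at 4 hpf), the ligand *bmp7a* (163 and 107 CPM at 7 hpf, against 38.3 and 113 CPM at 4 hpf) and the ventral homeobox gene *vox* (209 and 181 CPM at 7 hpf, against 193 and 286 CPM at 4 hpf) were not called, and their libraries overlapped between stages. The count of higher genes was 4 without 4 hpf replicate 1.

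Of the Notch pathway and her genes, some of which act in the segmentation clock, 4 of 8 were higher and 0 lower (median 2.55). *her1* was at 93.1 and 53.6 CPM at 7 hpf, against 1.68 and 0.775 CPM at 4 hpf (log2 fold change 5.91 ± 1.07 SE, adjusted p = 0.00146). *dlc*, a Delta ligand, was at 229 and 193 CPM at 7 hpf, against 0.719 and 8.14 CPM at 4 hpf (log2 fold change 5.53 ± 0.98 SE, adjusted p = 0.00133). *her7*, the partner of *her1* in the clock, was at 63.9 and 64.5 CPM at 7 hpf, against 1.92 and 3.1004 CPM at 4 hpf (log2 fold change 4.66), a call lost without 4 hpf replicate 1 (adjusted p = 0.0582). *notch3* was at 632 and 486 CPM at 7 hpf, against 5.51 and 90.3 CPM at 4 hpf, and this call was lost without 7 hpf replicate 1 (adjusted p = 0.0726), 7 hpf replicate 2 (adjusted p = 0.0578) and 4 hpf replicate 1 (adjusted p = 0.123). The count of rising genes was 2 without 4 hpf replicate 1. *notch1* (ENSDARG00000103554) was at 1353 and 943 CPM at 7 hpf, against 326 and 455 CPM at 4 hpf and did not pass the test (adjusted p = 0.0658).

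Of the retinoic acid genes, 3 of 6 were higher and 0 lower (median 4.45, or 2.82 with genes at 0 set to their bound), and the 3 calls held under every alternative. *aldh1a2*, the synthesising enzyme, was at 142 and 156 CPM at 7 hpf, against 0.479 and 2.13 CPM at 4 hpf (log2 fold change 6.76 ± 1.04 SE, adjusted p = 0.000545). *crabp2* (ENSDARG00000030449), a cytoplasmic binding protein, was at 409.8 and 402 CPM at 7 hpf, against 22.05 and 37.98 CPM at 4 hpf (log2 fold change 3.75 ± 0.70 SE, adjusted p = 0.00178). *dhrs3* (ENSDARG00000044803), a retinal reductase, was at 20.9 and 67.2 CPM at 7 hpf, against 0 and 1.16 CPM at 4 hpf (log2 fold change 6.10 ± 0.94 SE, adjusted p = 0.000678). The degrading enzyme *cyp26a1* was present at both stages, with 228 and 368 CPM at 7 hpf, against 102 and 60.1 CPM at 4 hpf, and was not called (adjusted p = 0.0949).

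Of the neural plate genes, 11 of 17 were higher and 0 lower (median 3.02, or 2.60 with genes at 0 set to their bound). *irx1* (ENSDARG00000056594), an Iroquois homeobox gene, was at 103 and 105 CPM at 7 hpf, against 2.64 and 2.91 CPM at 4 hpf (log2 fold change 5.22 ± 0.77 SE, adjusted p = 0.000448). *gbx1*, of the posterior neural plate, was at 40.3 and 53.4 CPM at 7 hpf, against 0.719 and 0.969 CPM at 4 hpf (log2 fold change 5.75 ± 0.81 SE, adjusted p = 0.000349). *zic2* (ENSDARG00000015554), a zinc finger gene of the plate, was at 176 and 207 CPM at 7 hpf, against 28.5 and 18.8 CPM at 4 hpf (log2 fold change 3.02). The 7 hpf replicates were unequal in several members. *hoxb1b*, of the hindbrain, was at 11.9 and 69.3 CPM at 7 hpf, against 0 and 0.388 CPM at 4 hpf (adjusted p = 0.00159), with 0 and 2 counts at 4 hpf. *six3* (ENSDARG00000054879), of the forebrain, had 4.35 and 11.8 CPM at 7 hpf and no count at 4 hpf. *sox3* and *zic2* (ENSDARG00000037178), both already above 100 CPM at 4 hpf, were not called. The count of higher genes was 7 without 4 hpf replicate 1 and 7 without 4 hpf replicate 2.

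Several epidermal transcription factors rose in both 7 hpf libraries, and keratins were high mainly in 1. Of 24 genes, 12 were higher and 1 lower (median 1.93). *gata2* was at 349.6 and 257 CPM at 7 hpf, against 21.3 and 24.4 CPM at 4 hpf (log2 fold change 3.73 ± 0.41 SE, adjusted p = 9.33e-05). *foxi1*, of the preplacodal ectoderm and ionocytes, was at 190.3 and 223 CPM at 7 hpf, against 16.3 and 20.7 CPM at 4 hpf (log2 fold change 3.48 ± 0.49 SE, adjusted p = 0.000349). *tfap2a*, of the nonneural ectoderm, was at 214 and 254 CPM at 7 hpf, against 32.6 and 25.4 CPM at 4 hpf (log2 fold change 3.01). *tp63*, the factor of basal epidermis, was at 36.6 and 55.99 CPM at 7 hpf, against 0.719 and 1.55 CPM at 4 hpf (log2 fold change 5.30). These 4 calls, and those for *tfap2c* and *dlx3*, held under every alternative. The keratin *krt8* was at 399 and 1443 CPM at 7 hpf, against 202 and 284 CPM at 4 hpf (log2 fold change 1.92, adjusted p = 0.0399). *krt5* was at 93.2 and 366 CPM at 7 hpf, against 22.3 and 61.2 CPM at 4 hpf (log2 fold change 2.45, adjusted p = 0.0482). For both, replicate 2 at 7 hpf was more than 3 times replicate 1. Both calls were lost without it (adjusted p = 0.509 for *krt8* and 0.433 for *krt5*). Without 7 hpf replicate 2, 6 genes of the list were higher, and without 4 hpf replicate 1 also 6. *krt4* (232 and 766 CPM at 7 hpf, against 136 and 125 CPM at 4 hpf) was not called. The gene that fell was *grhl3*, a Grainyhead factor of the enveloping layer, with 8.53 and 20.1 CPM at 7 hpf, against 72.1 and 84.9 CPM at 4 hpf (adjusted p = 0.0384), a call lost without each of the 4 libraries in turn.

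Genes of gastrulation movement gave 8 higher of 20 and 0 lower (median 1.33). The classical cadherin genes differed in outcome. *cdh2*, N-cadherin, was at 653 and 955 CPM at 7 hpf, against 16.8 and 28.5 CPM at 4 hpf (log2 fold change 5.15 ± 0.39 SE, adjusted p = 1.39e-05). *cdh1*, E-cadherin, was at 283 and 150.5 CPM at 7 hpf, against 376 and 416 CPM at 4 hpf, lower in both libraries but not called (adjusted p = 0.355). *prickle1* (ENSDARG00000040649), of planar cell polarity, was at 221 and 218 CPM at 7 hpf, against 28.5 and 38.6 CPM at 4 hpf (log2 fold change 2.71). *pcdh8* (ENSDARG00000006467), the paraxial protocadherin, was at 298 and 189 CPM at 7 hpf, against 3.83 and 17.2 CPM at 4 hpf (log2 fold change 4.52), a call lost without 4 hpf replicate 1 (adjusted p = 0.0598). The chemokine *cxcl12b* was at 31.6 and 28.7 CPM at 7 hpf, against 3.12 and 1.16 CPM at 4 hpf (log2 fold change 3.83), and its call was lost without 4 hpf replicate 2 (adjusted p = 0.0985). Both *cxcr4* receptor genes were not called, with log2 fold changes of -0.52 and -0.39. The count of higher genes was 3 without 4 hpf replicate 1 and 5 without 4 hpf replicate 2, and *cdh2* and *prickle1* were the genes that kept the call under every alternative.

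DNA methylation was profiled in the same cell types by the authors. Of 6 *dnmt3* genes, which encode de novo methyltransferases, 3 rose, and the maintenance genes were not called. Of 14 genes of this machinery, 3 were higher and 0 lower (median 0.84). *dnmt3bb.2* was at 882 and 1010.3 CPM at 7 hpf, against 178 and 289.9 CPM at 4 hpf (log2 fold change 2.02 ± 0.33 SE, adjusted p = 0.000838). *dnmt3ba* was at 364 and 381 CPM at 7 hpf, against 62.1 and 151 CPM at 4 hpf (log2 fold change 1.81 ± 0.44 SE, adjusted p = 0.00872). Another gene, named *dnmt3b* (ENSDARG00000036791), was at 104 and 99.96 CPM at 7 hpf, against 34.99 and 13.95 CPM at 4 hpf (log2 fold change 2.06 ± 0.48 SE, adjusted p = 0.00718). *dnmt1*, the maintenance methyltransferase, was at 252 and 309.5 CPM at 7 hpf, against 409 and 319.9 CPM at 4 hpf (log2 fold change -0.38). *uhrf1*, its recruiter, was at 1104 and 935 CPM at 7 hpf, against 967 and 1081 CPM at 4 hpf (log2 fold change -0.01). The demethylase genes *tet1*, *tet2* and *tet3* stayed under 5 CPM in all 4 libraries and were not called. All 3 rises missed the call under library totals, with log2 fold changes of 1.44, 1.24 and 1.40. Without 4 hpf replicate 1 the count was 2, and without 7 hpf replicate 1 the list's median was -0.13.

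The 12 largest rises above the same minimum had no count in either 4 hpf library, so their folds are lower bounds. *foxc1*, a forkhead gene of paraxial mesoderm, reached 126 and 160.3 CPM at 7 hpf, at least 175-fold higher. *dlx3*, a homeobox gene of nonneural ectoderm, reached 60.4 and 172 CPM, at least 83.98-fold higher. *prdm1*, the Blimp1 gene of prechordal plate and neural plate border, reached 45.1 and 206 CPM, at least 62.7-fold higher. Most of the set encodes developmental regulators. *mespab*, a bHLH factor of mesoderm, reached 52.3 and 17.3 CPM, *tbx1* reached 28.98 and 35.2 CPM, *six4a* reached 32.2 and 33.7 CPM, and *zeb1*, a zinc finger repressor, reached 30.8 and 69.3 CPM. The others were *hes4*, *kctd15*, *plxdc2*, *cd34* and *mdk* (ENSDARG00000020708), at least 13.4-fold to 44.3-fold higher. All 12 calls held under every alternative, and in PGCs all 12 were called higher over the same stages.

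Ribosomal protein genes rose as a block. Of 78 tested, 70 were higher and 0 lower (median 2.05), and in 77 both 7 hpf libraries lay above both 4 hpf libraries. Summed over the list, the level was 17059.8 and 17481 CPM at 7 hpf, against 3953 and 4721 CPM at 4 hpf. Between 59 and 66 members were called with 1 soma library left out. Under library totals 32 were called (median 1.42), since most members lay close to the fold threshold and that scaling lowered every value. Elongation factor genes were also higher. *eef1a1l1* was at 14353 and 12413 CPM at 7 hpf, against 2480.1 and 3300.5 CPM at 4 hpf (log2 fold change 2.21 ± 0.38 SE, adjusted p = 0.00111). *eef2b* was at 4602 and 4671 CPM at 7 hpf, against 1026 and 1661 CPM at 4 hpf (log2 fold change 1.79 ± 0.39 SE, adjusted p = 0.00443). The *eef2b* call was lost without 4 hpf replicate 1 (adjusted p = 0.0552) and under library totals. Of the other rising genes with the highest mean CPM, *hmga1a*, an architectural chromatin protein, was at 7673 and 8639.9 CPM at 7 hpf, against 1013 and 1838 CPM at 4 hpf (log2 fold change 2.52 ± 0.49 SE, adjusted p = 0.00241). *anp32e*, a chaperone of the histone H2A.Z in mammals, was at 3439.9 and 3780.3 CPM at 7 hpf, against 647 and 1045 CPM at 4 hpf (log2 fold change 2.09 ± 0.34 SE, adjusted p = 0.000741). *chd7*, a chromatin remodeller, was at 6648 and 6278 CPM at 7 hpf, against 1649 and 2393 CPM at 4 hpf (log2 fold change 1.68). Its call was lost without 7 hpf replicate 1 (adjusted p = 0.0563), 7 hpf replicate 2 (adjusted p = 0.0533) and 4 hpf replicate 1 (adjusted p = 0.126). The row with the highest mean CPM among those that rose was *zgc:158463*, with 14268 and 18794 CPM at 7 hpf, against 478 and 958 CPM at 4 hpf (log2 fold change 4.52 ± 0.70 SE, adjusted p = 0.000581). A similar fold was found for *si:dkey-153m14.1*, with 6299.9 and 8089 CPM at 7 hpf, against 224 and 372 CPM at 4 hpf (log2 fold change 4.59 ± 0.64 SE, adjusted p = 0.000331). Both rows were far higher in later soma. *zgc:158463* was at 226912 and 323564 CPM at 24 hpf and at 359000 and 329404 CPM at 36 hpf. *si:dkey-153m14.1* was at 110901 and 169191 CPM at 24 hpf and at 172676 and 158173 CPM at 36 hpf. The table gives no function for either, and what these rows measure was not tested.

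Markers of cells that differentiate after gastrulation summed to 4.51 and 15.3 CPM at 7 hpf, against 6.47 and 4.26 CPM at 4 hpf. Of 7 genes, 2 rose (median 0). The neuronal *elavl3* was at 2.58 and 9.62 CPM at 7 hpf, against 0.479 and 0 CPM at 4 hpf, and the muscle determinant *myod1* at 0.805 and 5.47 CPM at 7 hpf, against 0 and 0 CPM at 4 hpf. Both calls were lost without 7 hpf replicate 2, without 4 hpf replicate 1 and without 4 hpf replicate 2. No member was called lower in the main fit, but 1 was under DESeq2 and 1 under library totals. *gata1a*, *hbae1.1* and *neurod1* had no count in any of the 4 libraries. Of 7 genes of the yolk syncytial layer, 1 was higher and 0 lower (median 4.40, or 2.70 with genes at 0 set to their bound). With 1 soma library left out the median lay between 3.16 and 6.50. In 5 genes both 7 hpf libraries lay above both 4 hpf libraries. The gene called was *slc26a1* with 1.77 and 3.28 CPM at 7 hpf, against 0 and 0 CPM at 4 hpf, and its call was lost in the same 3 runs. DESeq2 called 4 of the 7 higher, edgeR on the 4 soma libraries alone also 4, and edgeR with no filter 5. *apoa1b* was at 16.9 and 57.3 CPM at 7 hpf, against 0 and 0.388 CPM at 4 hpf and did not pass the test (adjusted p = 0.0792).

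The later soma libraries place these changes in time. The 1907 higher genes had a median level of 5.03, 38.0, 35.02 and 33.2 CPM over the 4 stages in order of age. Of these, 1385 (72.6%) were nearer at 24 hpf to their 7 hpf level than to their 4 hpf level on the scale of log2(CPM + 1). The 1925 lower genes had medians of 21.8, 2.77, 9.82 and 9.27 CPM, and 891 (46.3%) were nearer at 24 hpf to their 7 hpf level. A single label of replicate 1 of soma at 24 hpf names PGCs, although its other labels say soma, and with replicate 2 alone the numbers were 1341 and 886. Whole lists behaved differently. The median member of the oocyte and egg list was at 18.4, 1.21, 0.0691 and 0.0679 CPM over the 4 stages. For ribosomal proteins it was at 42.1, 169, 433 and 357 CPM. The mesendoderm list was high at 7 hpf alone, with a median member at 3.33, 31.8, 1.57 and 0.653 CPM, and the organizer list had 1.83, 25.1, 2.65 and 3.36 CPM. These are levels with no test, and the selection of genes on the 4 and 7 hpf libraries bears on the 2 earlier values.

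**Figure D4:**
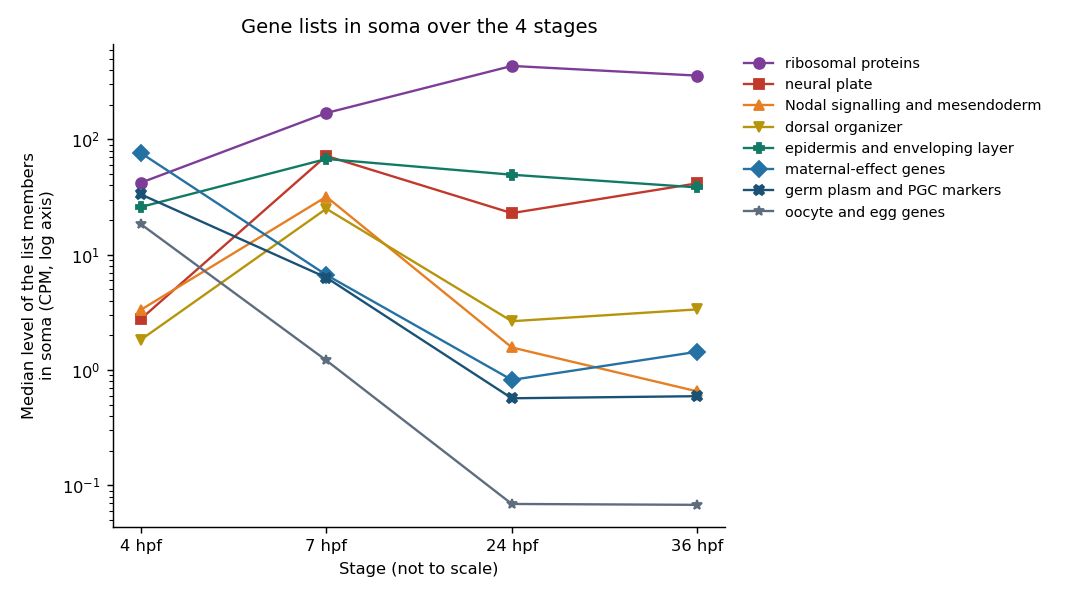
Median level over the members of 8 lists (mean CPM of the 2 soma libraries, logarithmic vertical axis) at 4, 7, 24 and 36 hpf. The mesendoderm and organizer lists peak at 7 hpf (31.8 and 25.1 CPM), the oocyte list is at 1.21 CPM at 7 hpf and 0.0691 CPM at 24 hpf, and the ribosomal protein list is highest at 24 hpf (433 CPM).

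The PGC libraries of the same stages are 4 further samples, which share no library with the soma comparison. Over the same interval PGCs had 1033 genes higher (5.03%) and 428 lower (2.08%) under the same rule. Of the 1907 genes higher in soma, 723 were called higher in PGCs and 0 lower, 1830 had the same sign, and their median log2 fold change was 2.73 in soma, where the genes were selected, and 1.66 in PGCs. Of the 1925 genes lower in soma, 328 were called lower in PGCs and 0 higher, 1808 had the same sign, and the PGC median was -1.17. Among the 16704 genes not called in soma, 11075 also had the same sign, counting genes at 0 in both. Across all 20536 genes the fold changes in soma and PGCs had a Pearson correlation of 0.504. This is a description, since genes are not independent and all libraries share the scaling. The oocyte and egg list had a median of -1.27 in PGCs with 6 genes lower, and the ribosomal proteins had a median of 1.26 with 23 higher. The enveloping layer markers summed to 6148 and 3247 CPM in the PGC libraries at 7 hpf, against 343 and 229 CPM at 4 hpf. The sums in soma were 425 and 1477 CPM at 7 hpf, and the part of this in the PGC values was not tested.

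Among single genes, *nanog* had a log2 fold change of -4.61 in soma and -3.58 in PGCs, and *gtf2a1* of -2.87 in soma and -0.85 in PGCs. *cdh2* had a log2 fold change of 5.15 in soma and 3.71 in PGCs, and *lef1* of 3.72 in soma and 1.78 in PGCs. When the difference between the soma change and the PGC change was itself tested, edgeR's quasi-likelihood test called 0 genes after adjustment. At an unadjusted p under 0.05 and a log2 difference past 1.5, 540 genes had a more positive change in soma than in PGCs. Another 1233 had a more negative change in soma. After adjustment DESeq2 called 352 genes and edgeR's likelihood ratio test 395. No gene is therefore described here as changing in soma alone.

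**Figure D5:**
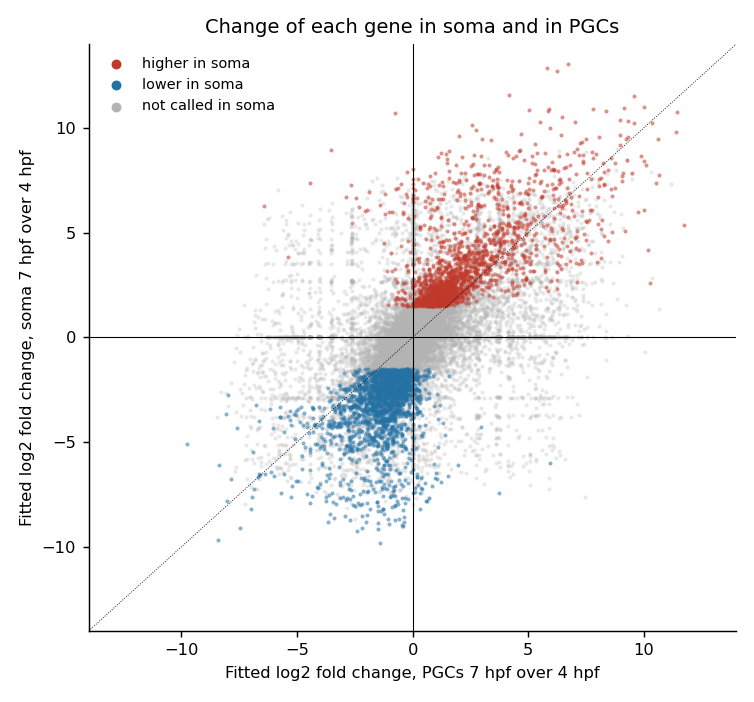
Log2 fold change from 4 to 7 hpf in soma (vertical axis) against that in PGCs (horizontal axis) for each tested gene, with genes called higher or lower in soma coloured and all others in grey. Of the genes called higher in soma 1830 of 1907 lie to the right of 0 in PGCs, and of those called lower 1808 of 1925 lie to the left. Of those not called 11075 of 16704 have the same sign in both.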

How the data were processed

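RNA of sorted cells was amplified with a stranded total-RNA kit and sequenced by the authors, who trimmed reads with Trim Galore, aligned them to danRer10 with STAR and quantified genes with RSEM. The authors deposited expected counts (not normalised, 95.2% of values whole), TPM (scaled for transcript length, with every library summing alike) and effective lengths, per gene and library. The 92 spike-in rows, which hold 0 counts, were left out, and the other values were rounded to integers. All 16 libraries entered 1 fit with a factor of 8 groups, after edgeR's filterByExpr and TMM scaling (edgeR 4.0.16, glmQLFit and glmQLFTest, R 4.3.3), with the contrast of soma at 7 hpf minus soma at 4 hpf and Benjamini-Hochberg adjustment over 20536 genes. A gene was called at an adjusted p under 0.05 and a log2 fold change past 1.5. The standard error is the log2 fold change over the root of the F statistic. The scripts were tested on simulated data with known changes.

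The deposited files name genes by Ensembl identifier. A table of names matched 26791 of 34289 rows, some under the symbol of the human counterpart, and 1661 symbols belong to several identifiers, whose reads may be shared between copies. Of 335 list symbols 14 were not matched. The members and lists were chosen with earlier results of these data known. Besides list members, the text names genes from the 12 largest and 12 smallest fold changes among called genes (named, mean of at least 5 CPM, groups not overlapping). It also draws on the 10 called genes with the highest mean CPM in each direction among genes in no list. Not every gene of these sets is named in the text, and the 246 called genes include those that are not. Where a stage had no counts, the bound on a fold sets its library of lesser depth to 3 counts and takes the lower library of the other stage, so it covers counting error only. The floor of 3 counts was from 0.483 to 0.719 CPM. Alternatives were DESeq2 1.42.0, other scalings and filters, fewer libraries, the likelihood ratio test, the replicate number as a block, effective lengths as offsets, limma 3.58.1 on log-transformed TPM with a pseudocount of 1 or 0.1, a fold threshold of 1, and leaving out libraries in turn. No sequences were used here, and values of some list members are not reported here.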

Additional observations from a re-analysis of the deposited data

How the results depend on the processing

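No called gene changed sign under any alternative, except 1 higher gene under limma on log2(TPM + 0.1). Of the 246 called genes that are named or in a list, 126 kept the call in every setting that gave them a value, and 0 changed sign. Calls said above to hold under every alternative are meant in the same way. The fold threshold of 1 could not remove a call. Of 217 genes not called, 56 were called in at least 1 setting. Against 1907 higher and 1925 lower genes, library totals gave 1064 and 3146, and limma on log2(TPM + 1) gave 1224 and 1008. Runs without 1 library gave 1207 to 1663 higher and 1151 to 1746 lower among the 4 soma libraries; 1207 and 1243 came without 4 hpf replicate 1, and 1151 lower without 7 hpf replicate 2. DESeq2, which uses its own size factors, gave 2140 and 2635, no filter 2032 and 2607, and the 4 soma libraries alone 1381 and 1850. Leaving out replicate 1 of soma at 24 hpf, chosen after seeing the data, gave 1814 and 1858. The test of the difference between the soma and PGC changes called 0 genes, against 352 with DESeq2, 502 with no filter, 57 with a stricter filter, 54 with the 8 libraries of 4 and 7 hpf, 395 with the likelihood ratio test, 9 and 7 with limma on log2(TPM + 1) and log2(TPM + 0.1), and between 0 and 37 with 1 library left out (37 without 7 hpf soma replicate 1). The cause was not tested. Library totals, which put the median of all genes at -0.28, put those of the cell cycle (-0.16), general transcription (-0.11) and mRNA decay (-0.18) below 0 but above it. The median changed sign for DNA methylation without 7 hpf replicate 1 (-0.13, and up to 1.33 without 7 hpf replicate 2). The median of reported miR-430 targets was 0.24 with the stricter filter, 0.29 with the 8 libraries, 0.22 with the 4 soma libraries, 0.25 with either limma fit and from -1.21 to 0.15 with 1 library left out, 0.15 without 4 hpf replicate 2. Depth limits the genes at the floor, whose folds have no upper bound.

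Whether the replicate number pairs the libraries cannot be told from 2 libraries a stage. Deviations of same-numbered libraries from their stage means correlated at 0.05 over genes in soma and at 0.13 in PGCs. With the number as a block, 1960 genes were higher and 2047 lower, 1822 and 1834 of them shared with the calls without it, the difference test called 0, and 3 of the 246 genes lost the call.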

Other observations

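Further gene families were counted after their values were seen, so they carry no test. Over all tested genes, 9.29% were called higher and 9.37% lower. A family of 79 genes was matched by the symbols of translation initiation and elongation factors, which also took in kinases of eIF2. Of these, 24 rose and 3 fell (median log2 fold change 1.03). The family summed to 33959 and 30902 CPM at 7 hpf, against 9417 and 12589 CPM at 4 hpf. Those that fell were *eif4eb* (log2 fold change -2.69), which encodes a cap-binding protein, and the eIF2 kinases *eif2ak3* (-3.61) and *eif2ak1* (-1.75), whose products repress initiation under stress. Of 52 proteasome subunits, 16 rose and 0 fell (median 1.18), among them *psmb6* (log2 fold change 2.99) and *psma1* (2.87), and of 8 subunits of the cytosolic chaperonin 3 rose (*cct4*, *cct5* and *cct6b*, from 1.94 to 2.12). Of 18 tubulins, 7 rose and 0 fell (median 1.25). Of 32 chaperones and transport genes of the endoplasmic reticulum, 8 were lower and 1 higher (median -0.42). In 15 both 7 hpf libraries lay below both 4 hpf libraries, and in 8 both lay above. Over all tested genes 25.3% lay below and 29.3% above. The 15 included the cochaperone *dnajc3a* (log2 fold change -2.64) and the lectin chaperone *calr* (-1.67).

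The hox genes were called higher in 6 and lower in 1 of 47 rows, beside 9.29% and 9.37% of all tested genes. They were unequal between replicates. Their summed level was 17.1 CPM in replicate 1 and 141 CPM in replicate 2 at 7 hpf, against 7.91 and 3.88 CPM at 4 hpf. The enveloping layer markers were likewise higher in replicate 2 at 7 hpf, with 1477 CPM against 425 CPM in replicate 1, whereas *mespab* had 17.3 CPM in replicate 2 and 52.3 CPM in replicate 1. The part of these differences between replicates in the calls was not tested.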
